A study of Mus musculus with 18 samples.

Results

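The luminal simple keratins analysed here were Krt8, Krt18, Krt19 and Krt7 of the mouse mammary gland. Their members were all probe sets on either array of the study whose annotated gene symbol was 1 of these 4 names. The rule found 6 probe sets of 45037 for these 4 of 18193 named genes, all on chip A and none on chip B, with 3 for Krt8 (1420647_a_at, 1423691_x_at and 1435989_x_at), 1 for Krt18 (1448169_at), 1 for Krt19 (1417156_at) and 1 for Krt7 (1423952_a_at). No probe set that carried several gene symbols named a member. All 6 passed the filter on dim probe sets, and the lowest of their 54 signals was 851.

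Keratins build the intermediate filaments of epithelial cells, and a filament needs a type II keratin paired with a type I keratin. Krt8 and Krt7 are type II, and Krt18 and Krt19 are type I. Together they are the keratins of simple epithelia, and in the mammary gland they are known as markers of the luminal cells that line ducts and alveoli, while the outer basal layer of myoepithelial cells is known for Krt5 and Krt14.

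Total RNA of 3 sorted cell fractions, with 3 RNA samples each, was hybridised to the Affymetrix arrays MOE430 chip A and chip B. CFC, from dissociated fresh mammary tissue, was enriched for epithelial colony-forming cells, of which it held 1 in 10 cells, and each RNA sample came from 3000 to 4000 cells. MaSC, from the same kind of tissue, held 1 stem cell in 50 to 100 cells, and each RNA sample came from 2000 to 4000 cells. MYO held basal (myoepithelial) cells at an estimated purity near 94%, and each RNA sample came from 3000 to 24000 cells. Magnets and FACS were used for all 3 fractions, with negative selection named for CFC and MaSC and immunomagnetic enrichment for MYO. The labels used here name no treatment, genotype, strain or age. By these estimates most cells of CFC and MaSC were not the cell in the name, and an array averages over such a fraction. Biological triplicates are stated for CFC alone, so the p-values cover the spread between the RNA samples only, and that spread may be technical.

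The labels were checked against markers. The summed signal of 14 luminal marker genes was 395087 to 675026 in the CFC samples, 41252 to 98924 in MYO and 78515 to 93893 in MaSC. The summed signal of 12 basal marker genes was 12233 to 25632 in CFC, 446623 to 686984 in MYO and 378891 to 710041 in MaSC. No summed signal of a luminal or basal list overlapped between CFC and the other fractions. A few bright genes made up much of these sums. Csn3 had a mean signal of 242723 in CFC, and Acta2 had 424551 in MYO and 362819 in MaSC. The sums therefore say little about the dimmer markers. MaSC1 stood apart on chip A, with a correlation of at most 0.599 with the other MaSC arrays, which correlated at 0.784 with each other, and of 0.633 with its nearest array, MYO2. Whole arrays did not group by fraction. CFC1, MaSC2 and MaSC3 were also nearest to MYO2 (0.773, 0.788 and 0.792), and MYO2 and MYO3 to MaSC3 (0.792 and 0.746). Only CFC2, CFC3 and MYO1 were nearest to an array of their own fraction. Between 70.0% and 75.7% of the chip A probe sets reached a signal of 300 on an array.

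On assembly GRCm38.p6 the RefSeq annotation places Krt8 at chr15:101996711-102004342 and Krt18 at chr15:102028216-102032026, so that 23873 bases and 2 other annotated genes lie between this type II and type I pair. Krt7 lies at chr15:101412403-101427806, on the same chromosome, and Krt19 lies at chr11:100140810-100145926. All 4 genes had CFC signals above every sample of both basal fractions. The promoter windows of Krt8, Krt18 and Krt7 are shown, as none was found for Krt19. Each holds the 300 bases from 250 before to 50 after the annotated start, read 5′ to 3′ on the strand of the gene, from RefSeq for GRCm38.p6. The windows are chr15:102004293-102004592 on the minus strand for Krt8, chr15:102027966-102028265 on the plus strand for Krt18 and chr15:101412153-101412452 on the plus strand for Krt7. Capitals mark every match to 1 of 8 short motifs searched on both strands.
Krt8 promoter: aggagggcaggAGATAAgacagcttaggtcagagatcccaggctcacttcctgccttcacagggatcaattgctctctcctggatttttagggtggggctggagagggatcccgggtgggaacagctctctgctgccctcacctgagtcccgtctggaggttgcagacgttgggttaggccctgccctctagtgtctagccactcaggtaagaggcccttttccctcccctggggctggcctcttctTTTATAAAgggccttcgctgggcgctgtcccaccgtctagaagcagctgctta
Krt18 promoter: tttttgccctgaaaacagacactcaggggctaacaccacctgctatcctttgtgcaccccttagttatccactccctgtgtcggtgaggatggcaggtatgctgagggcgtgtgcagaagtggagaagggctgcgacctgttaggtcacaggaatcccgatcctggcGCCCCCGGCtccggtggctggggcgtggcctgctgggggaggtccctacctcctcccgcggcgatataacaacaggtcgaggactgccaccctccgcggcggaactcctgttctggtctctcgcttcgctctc
Krt7 promoter: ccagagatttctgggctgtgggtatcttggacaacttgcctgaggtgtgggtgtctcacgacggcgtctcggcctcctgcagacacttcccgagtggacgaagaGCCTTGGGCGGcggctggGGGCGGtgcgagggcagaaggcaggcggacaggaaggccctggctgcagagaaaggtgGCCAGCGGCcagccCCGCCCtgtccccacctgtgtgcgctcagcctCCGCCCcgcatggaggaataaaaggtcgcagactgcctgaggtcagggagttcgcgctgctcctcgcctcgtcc
The motifs searched were TATAAA, the GC box GGGCGG, the letters CCAAT, the AP-1 motif TGANTCA, the AP-2 motif GCCNNNGGC, the Grhl motif ACCGGT, the Ets motif CCGGAAG and the Gata motif AGATAA. The Krt8 window held AGATAA, which 11.2% of 32544 promoter windows hold, and TATAAA, which 13.6% hold. TATAAA was matched there on both strands, in overlapping positions. The Krt18 window held GCCNNNGGC once, a motif in 16.7% of windows. The Krt7 window held GGGCGG at 4 positions, a motif in 35.9% of windows, and GCCNNNGGC at 2 positions, 1 of which overlaps a GGGCGG match. No searched motif was shared by all 3 windows, and these matches describe letters only.

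In the mean, all 4 keratins were highest in the CFC fraction, intermediate in MaSC and lowest in MYO. Every probe set had its 3 CFC signals above all 6 signals of the basal fractions. Measured against CFC, the fall was called for all 4 genes in MYO and for Krt18 and Krt19 in MaSC, and no member was called between MaSC and MYO. In RNA of whole fractions, fewer cells that express a keratin and less of its RNA per cell cannot be told apart. The plot of signals by RNA sample shows every value.

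**Figure D1:**
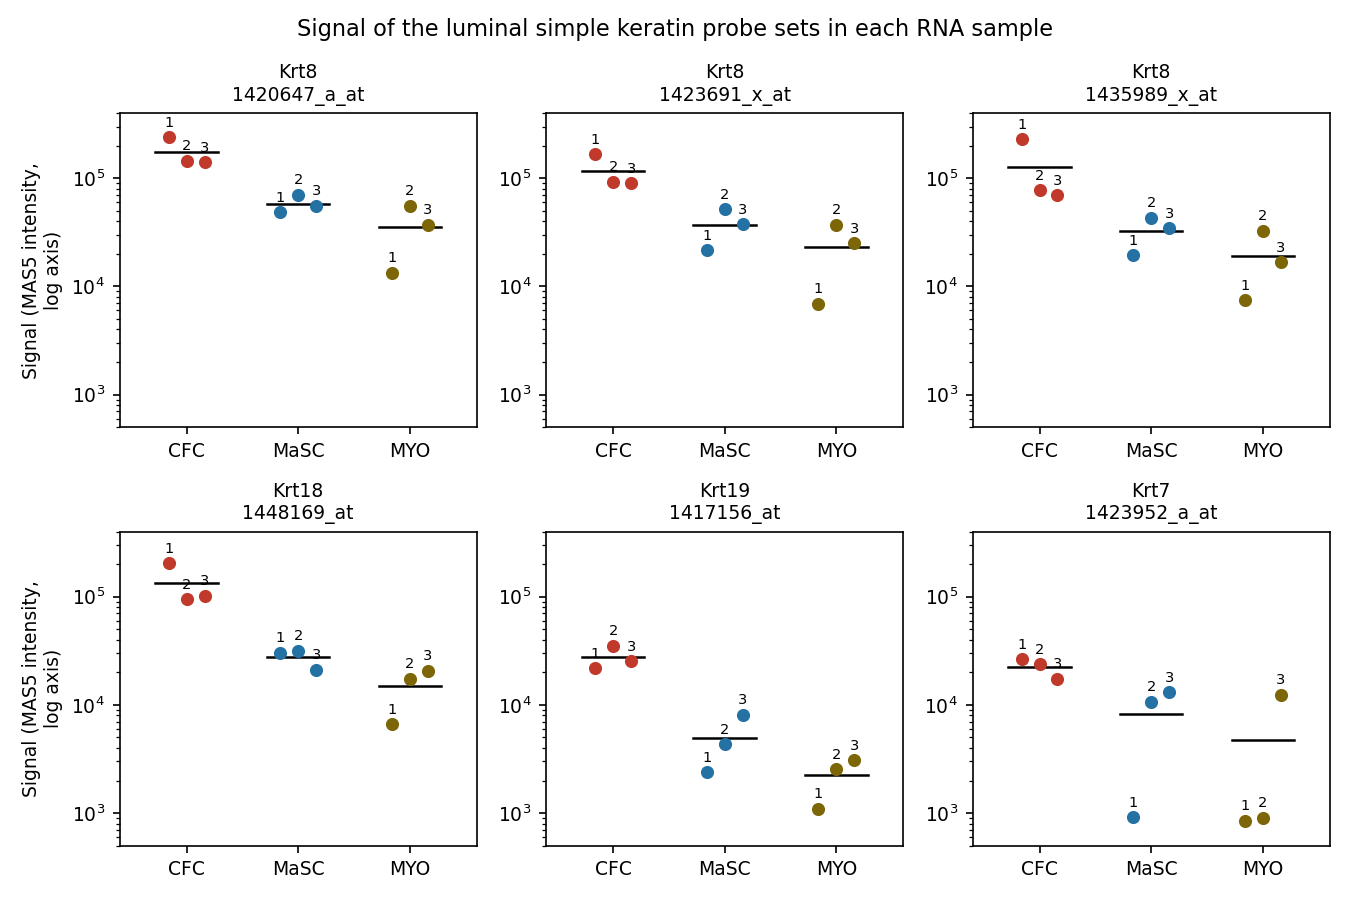
Signal (MAS5 intensity, log axis) of the 6 probe sets of Krt8, Krt18, Krt19 and Krt7 in the 9 RNA samples, with CFC in red, MaSC in blue and MYO in brown. Points are RNA samples marked by replicate number, and lines are means of 3. The CFC points lie above all others in each panel, and Krt7 splits MaSC and MYO into signals of 911 or less and signals of 10669 or more.

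Krt8 is a type II keratin of simple epithelia and a filament partner of Krt18. Its probe set 1420647_a_at had signals of 240112, 145205 and 141188 in CFC1, CFC2 and CFC3. In MaSC1, MaSC2 and MaSC3 they were 48622, 70023 and 55581. In MYO1, MYO2 and MYO3 they were 13356, 55682 and 37213. CFC1 was the highest and MYO1 the lowest of the 9 samples, and MaSC and MYO overlapped. The mean signal was 175502 ± 55990.2 in CFC, 58075 ± 10916 in MaSC and 35417 ± 21220 in MYO (SD, n = 3 each). Between MYO and CFC the log2 fold change, on the log2(signal + 150) scale, was -2.48 ± 0.47 (SE), which is 5.60-fold lower (limma, adjusted p = 0.00167). Between MaSC and CFC it was -1.56 ± 0.47, or 2.96-fold lower, and did not pass (limma, adjusted p = 0.129, 95% interval -2.53 to -0.60).

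The other Krt8 probe sets gave the same order of fractions. The suffix _x_at marks probe sets that may also bind other transcripts, and _a_at marks those that match several transcripts of a gene. Probe set 1423691_x_at had signals of 167147, 92371 and 90128 in CFC, 21552, 51589 and 37400 in MaSC and 6911, 36992 and 24970 in MYO. Probe set 1435989_x_at had signals of 229167, 77352 and 69848 in CFC, 19318, 43248 and 34291 in MaSC and 7441, 32711 and 16781 in MYO. In both, CFC1 was again highest and MYO1 lowest. Their fold changes between MYO and CFC were -2.58 ± 0.49 and -2.73 ± 0.49 (limma, adjusted p = 0.00167 and 0.000925). Between MaSC and CFC they were -1.68 and -1.81, neither past the threshold (limma, adjusted p = 0.105 and 0.0693). The log2 difference between 2 Krt8 probe sets varied over the 9 samples with an SD of 0.23 to 0.35, and CFC1 was the sample in which 1435989_x_at came closest to 1420647_a_at.

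Krt18, a type I partner of Krt8, had signals of 203907, 95288 and 102470 in CFC1, CFC2 and CFC3. They were 30351, 31625 and 21121 in MaSC1, MaSC2 and MaSC3, and 6620, 17387 and 20631 in MYO1, MYO2 and MYO3. It was the only member whose MaSC and MYO samples did not overlap, by the small gap between MaSC3 and MYO3. Mean signals were 133888 ± 60744 in CFC, 27699 ± 5732 in MaSC and 14879 ± 7335 in MYO (SD, n = 3 each). Krt18 was 9.32-fold lower in MYO than in CFC (log2 fold change -3.22 ± 0.43, limma, adjusted p = 1.59e-05). It was 4.59-fold lower in MaSC than in CFC (-2.20 ± 0.43, limma, adjusted p = 0.00442). Without CFC1, the sample with the highest Krt18 signal, the MaSC value was -1.85 and just missed the threshold (limma, adjusted p = 0.0506).

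Krt19 is a type I keratin that lacks most of the tail domain found in other keratins. Its signals were 21822, 35211 and 25201 in CFC1, CFC2 and CFC3, 2400, 4334 and 8098 in MaSC1, MaSC2 and MaSC3, and 1101, 2545 and 3085 in MYO1, MYO2 and MYO3. CFC1, the highest CFC sample for Krt8 and Krt18, was the lowest for Krt19. Mean signals were 27411 ± 6963 in CFC, 4944 ± 2897 in MaSC and 2244 ± 1026 in MYO (SD, n = 3 each). Krt19 was 12.2-fold lower in MYO (log2 fold change -3.61 ± 0.44, limma, adjusted p = 3.53e-06) and 5.93-fold lower in MaSC (-2.57 ± 0.44, limma, adjusted p = 0.000967).

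Krt7 is a type II keratin of ducts and glands. Its signals were 26377, 23877 and 17419 in CFC1, CFC2 and CFC3. In MaSC1, MaSC2 and MaSC3 they were 911, 10669 and 13109, and in MYO1, MYO2 and MYO3 they were 851, 906 and 12420. MaSC1, MYO1 and MYO2 were thus low, and MaSC2, MaSC3 and MYO3 lay below CFC3, the lowest CFC sample. The highest signal was 14.4 times the lowest within MaSC and 14.6 times within MYO, against 1.51 times within CFC. The pooled SD within fractions was 1.69 on the log2 scale, larger than that of 99.8% of the 20159 chip A probe sets tested, whose median SD was 0.81. For the other 5 member probe sets it was 0.64 to 0.89. The 2016 brightest probe sets tested had a lower median SD of 0.49. The SDs of the 5 were larger than those of 72.6% to 91.0% of these bright probe sets, and that of Krt7 than 99.7%. For every member the SE from limma, fitted with a variance trend, was below what its own SD alone would give. This limits the calls.

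Krt7 was lower in MYO than in CFC (log2 fold change -3.24 ± 0.72, 9.45-fold, limma, adjusted p = 0.00874), and this call depended on single samples. Without MYO1 it was -2.62 (limma, adjusted p = 0.122), without MYO2 -2.66 (limma, adjusted p = 0.107) and without MYO3 -4.44 (limma, adjusted p = 0.00023). Between MaSC and CFC it was -2.07 ± 0.72 and did not pass (limma, adjusted p = 0.258), and without MaSC1 it was -0.90 (limma, adjusted p = 0.754). The summed signal of 14 luminal markers did not order the samples as Krt7 did, at 41252 in MYO1, 98924 in MYO2 and 44506 in MYO3, and at 82412, 78515 and 93893 in MaSC1, MaSC2 and MaSC3. Single genes of that list differed. Kit ordered the basal samples as Krt7 did, at 124, 176 and 1040 in MYO and 352, 667 and 1341 in MaSC. Elf5 did not, at 939, 493 and 235 in MYO and 423, 72.9 and 209 in MaSC. Kit was the 3rd nearest of 11491 genes to Krt7 by the likeness measure below. Its order was thus selected by profile and is no separate evidence, and its MYO1 and MYO2 signals lay below 300. Within MYO, Foxa1 was highest in MYO3 as Krt7 was, at 200, 549 and 877. Prom1 (1272, 1358 and 515), Cldn3 (3191, 1718 and 1577) and Ltf (1791, 1816 and 235) were lowest there. The part of luminal cells in the Krt7 values was not tested. The summed signal of 8 fibroblast markers was 30842 in MYO1, 64529 in MYO2 and 28225 in MaSC1, above the 14021 of MYO3, the 11912 of MaSC2 and the 16707 of MaSC3, with 12266 to 20649 in CFC. None of the 8 fibroblast genes was below a signal of 300 in all samples of a fraction, and their part in the Krt7 values was not tested.

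Over all members, 6 of 6 probe sets were called lower in MYO than in CFC, where 0.541% of the 20159 chip A probe sets tested were called lower (limma, adjusted p under 0.05). The median log2 fold change of the 6 was -2.98, beside -0.01 over all tested. In MaSC against CFC, 2 of 6 were called lower, where 0.357% of all tested were, and the median was -1.94 beside -0.02. The samples did not overlap for 6 of 6 in both comparisons, where 7.36% of all tested lay wholly lower in MYO and 7.43% in MaSC. Both comparisons share the CFC samples, and 3 of the 6 probe sets belong to Krt8.

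The settings of the fit bear on these counts. With no trend of the variance on the signal in limma, 2 of 6 were called in MYO and 0 of 6 in MaSC, and with only CFC and MaSC in the fit, 5 of 6 were called in MaSC. Without MYO1, the lowest MYO sample for every member, 3 of 6 were called in MYO, and the Krt8 value of 1420647_a_at was -1.90 (limma, adjusted p = 0.0550). Without CFC1, 1 of 6 was called in MaSC. Without MaSC1, the array that stood apart, 2 of 6 were called in MaSC, with Krt18 at -2.28 and Krt19 at -2.15. Krt18 and Krt19 were called lower in MYO in each of the 9 runs that left out 1 RNA sample.

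Chip A was scanned on 2 days, with CFC on the first day only. Within that day, which held 3 CFC, 2 MYO and 2 MaSC samples, the 6 log2 differences were -2.66 to -3.75 for MYO and -1.54 to -2.998 for MaSC against CFC. With the scan day as a block in the fit, 6 of 6 were called in MYO and 3 of 6 in MaSC. The array records also name a station, which no fit included. On chip A all 3 CFC arrays had station 2, while MaSC1, MaSC2 and MYO3 had station 1. Within the first day, the difference between MaSC and CFC therefore cannot be told apart from that between stations.

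**Figure D2:**
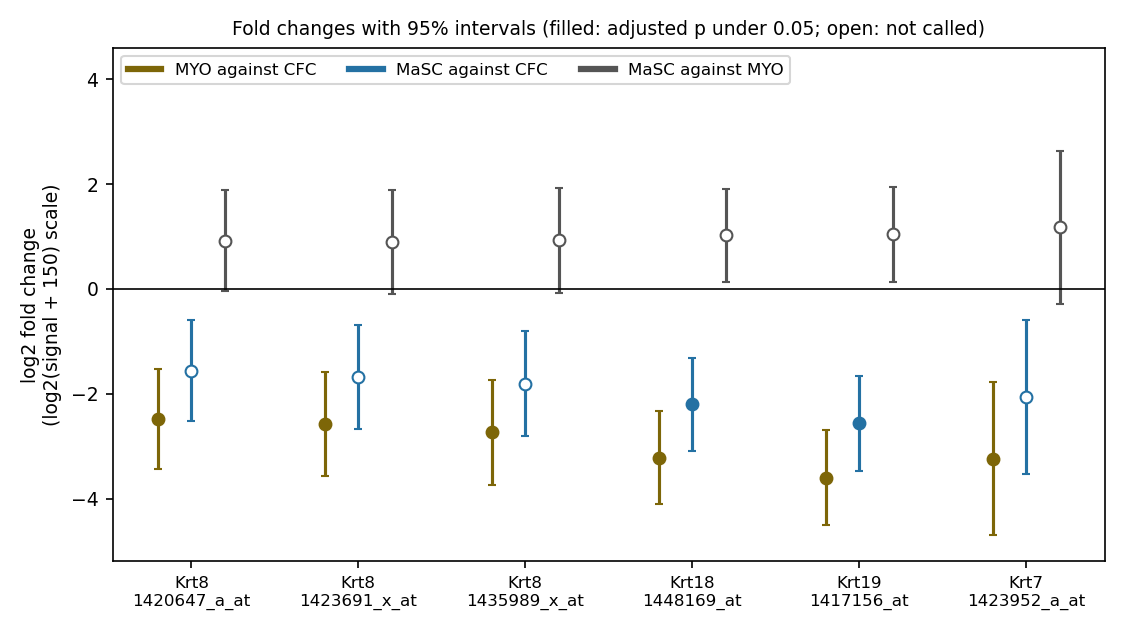
log2 fold change on the log2(signal + 150) scale, with its 95% interval, of each member probe set between MYO and CFC, MaSC and CFC, and MaSC and MYO (3 RNA samples each). Filled points passed an adjusted p of 0.05. All 6 points are filled for MYO against CFC, 2 for MaSC against CFC and none for MaSC against MYO.

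Between the basal fractions, every member was higher in MaSC than in MYO in the mean, and none was called. The log2 fold change was 0.92 for Krt8 (95% interval -0.04 to 1.88), 1.02 for Krt18 (0.13 to 1.91), 1.04 for Krt19 (0.13 to 1.94) and 1.17 for Krt7 (-0.29 to 2.64). All had an adjusted p of 0.999 in limma, which called 0% of the 20159 probe sets in this comparison. At an unadjusted p under 0.05, 2 of 6 members passed, Krt18 and Krt19 (limma, unadjusted 0.0256 and 0.0260), where 3.81% of all tested did. Only Krt18 had MaSC samples wholly above the MYO samples, where 4.08% of all tested did. These differences rested on single samples. Without MYO1 they were 0.33 for Krt8, 0.52 for Krt18, 0.62 for Krt19 and 0.55 for Krt7. The Krt19 difference was also 0.61 without MaSC3. That of Krt7 was 2.34 without MaSC1 and 2.38 without MYO3, and 0.59, 0.66 and 0.52 without MYO2, MaSC2 and MaSC3. The 2 MaSC and 2 MYO samples scanned on the first day differed by -0.066 for Krt7, and the single samples of each scanned on the second day by 3.65. For Krt8 the 2 days gave 1.38 and -0.0026. The intervals of Krt8 and Krt7 include 0, and those of all 4 genes reach differences above 2-fold.

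Taking the basal fractions as 1 mean against CFC, 6 of 6 were called lower, with log2 fold changes from -2.02 for Krt8 to -3.09 for Krt19, where 0.64% of all tested were. The F test over the 3 fractions called 6 of 6, from an adjusted p of 9.03e-06 for Krt19 to 0.0269 for Krt7 in limma, where 1.56% of all tested were called. Without CFC1 the F test called 2 of 6.

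Whether 2 keratins changed by unequal factors was tested with the log2 ratio of their signals within each sample. Only changes of a ratio are read, since levels of different probe sets are not comparable. For Krt8 over Krt18, which build filaments together, the log2 ratio was 0.24, 0.61 and 0.46 in CFC, 0.68, 1.14 and 1.39 in MaSC and 1.00, 1.67 and 0.85 in MYO. With Krt8 probe set 1420647_a_at, used here, all 6 basal samples lay above all 3 CFC samples. The ratio was higher by 0.64 in MaSC and by 0.74 in MYO, each with an exact two-sided permutation p of 0.1, the smallest that 3 against 3 allows.

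With the basal samples together, the Krt8 over Krt18 ratio was higher by 0.69 (0.43 ± 0.19 in CFC, SD, n = 3, and 1.12 ± 0.36 in the basal samples, SD, n = 6). The exact two-sided permutation p was 0.0238, the smallest that 6 against 3 allows, and 0.143 after Benjamini-Hochberg adjustment over the 6 pairs of genes, so the pair did not pass. Without MaSC1 the change was 0.77. The separation did not hold for the other Krt8 probe sets. With 1423691_x_at the change was 0.58 (exact permutation p = 0.143, adjusted 0.429), and MaSC1, at -0.49, lay below the CFC range of -0.29 to -0.045. With 1435989_x_at the change was 0.44 (exact permutation p = 0.310, adjusted 0.929), 3 of the 6 basal samples lay above every CFC sample, and MaSC1, at -0.65, lay below the CFC range of -0.55 to 0.17. Krt8 over Krt19 was higher by 1.06 (exact permutation p = 0.0714, adjusted 0.214), with overlapping samples. The other 4 pairs changed by -0.43 to 0.63, with adjusted p-values of 0.743 and 1 (exact permutation tests).

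**Figure D3:**
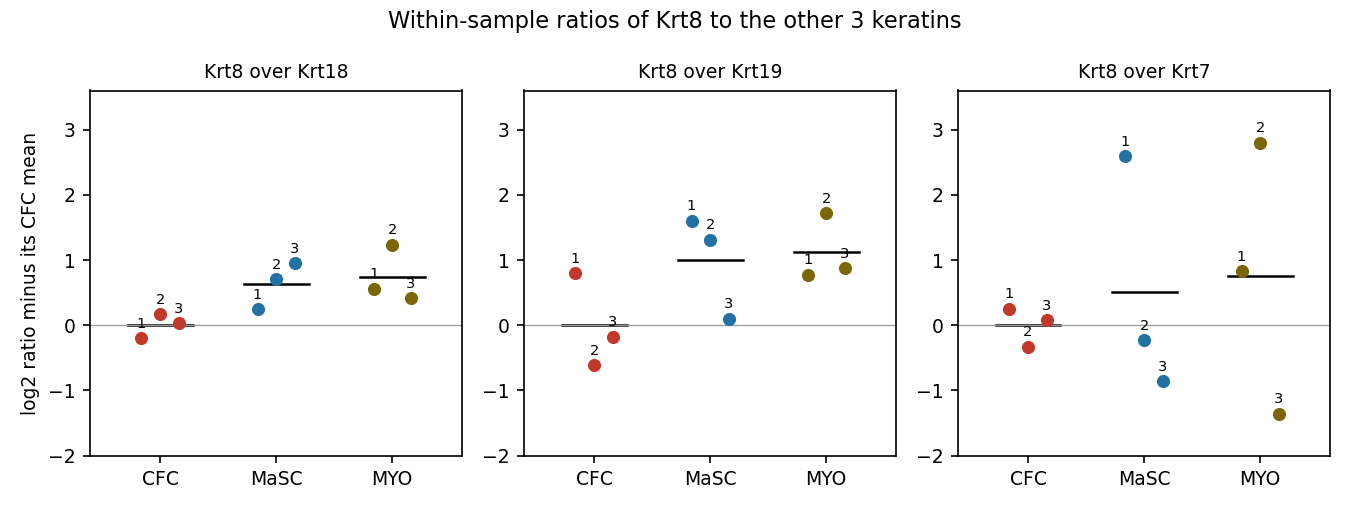
log2 ratio of the Krt8 signal to that of Krt18, Krt19 and Krt7 within each RNA sample, minus the CFC mean of the ratio. Points are RNA samples marked by replicate number and lines are means of 3. With Krt8 probe set 1420647_a_at, the basal samples lie above CFC for Krt18, overlap CFC for Krt19 and spread to both sides of CFC for Krt7.

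The likeness of 2 genes was measured as the root-mean-square (RMS) difference of their log2(signal + 150) profiles over the 9 RNA samples of chip A, each centred on its mean, among 11491 other genes. It describes these 9 arrays, whose samples share the difference between fractions, and says nothing of a common role. For Krt8 the nearest genes were Cmpk1, a nucleotide kinase (RMS difference 0.318), Epcam, an epithelial adhesion molecule (0.387), Plet1 (0.423), Krt18 (0.431) and the iron exporter gene Slc40a1 (0.475), where the median over all genes was 1.33. Cmpk1 had signals of 8612, 8025 and 4978 in CFC, 2001, 3856 and 3418 in MaSC and 639, 2529 and 2433 in MYO, with MYO1 lowest as for Krt8.

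For Krt18 the nearest were the adhesion gene Ceacam1 (0.421), Krt8 (0.431), the tight junction gene Cldn3 (0.513), the tubulin gene Tubb2b (0.557) and Basp1 (0.567). For Krt19 they were Cd164, a sialomucin (0.480), Gpx3, a secreted glutathione peroxidase (0.494), the kinase gene Nek7 (0.528), the fatty acid desaturase gene Scd1 (0.626) and Serinc3 (0.631). The filament partners Krt8 and Krt18 were near each other, with Krt18 4th to Krt8 and Krt8 2nd to Krt18. Krt19 ranked 171st to Krt8 and 19th to Krt18, and Krt7 ranked 6167th to Krt8, 2199th to Krt18 and 181st to Krt19. In the other direction, Krt18 ranked 12th and Krt8 15th to Krt19, while Krt19 ranked 13th, Krt8 66th and Krt18 120th to Krt7.

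The nearest genes to Krt7 were Nupr1, a stress-induced chromatin-associated gene (RMS difference 0.616), the sorting nexin gene Snx2 (0.800), the receptor tyrosine kinase gene Kit (0.921), the scavenger receptor gene Scara5 (0.923) and Wfdc12 (0.971), where the median over all genes was 2.002. Nupr1 had signals of 3919, 6853 and 2764 in CFC, 97.6, 3698 and 3923 in MaSC and 398, 439 and 3502 in MYO. Kit, a receptor known in luminal progenitors, had signals of 1661, 2695 and 2948 in CFC, 352, 667 and 1341 in MaSC and 124, 176 and 1040 in MYO. Both were lowest in the same 3 samples as Krt7, MaSC1, MYO1 and MYO2, which is what the measure selects. By Pearson correlation in place of the RMS difference, 3, 4, 1 and 2 of the 5 nearest genes of Krt8, Krt18, Krt19 and Krt7 were the same. Without MaSC1, an alternative chosen after seeing the data, 2, 3, 3 and 3 were, and Nupr1, Snx2 and Kit were those of Krt7. Krt18 was then no longer among the 5 nearest genes of Krt8, while Krt8 stayed 2nd to Krt18.

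**Figure D4:**
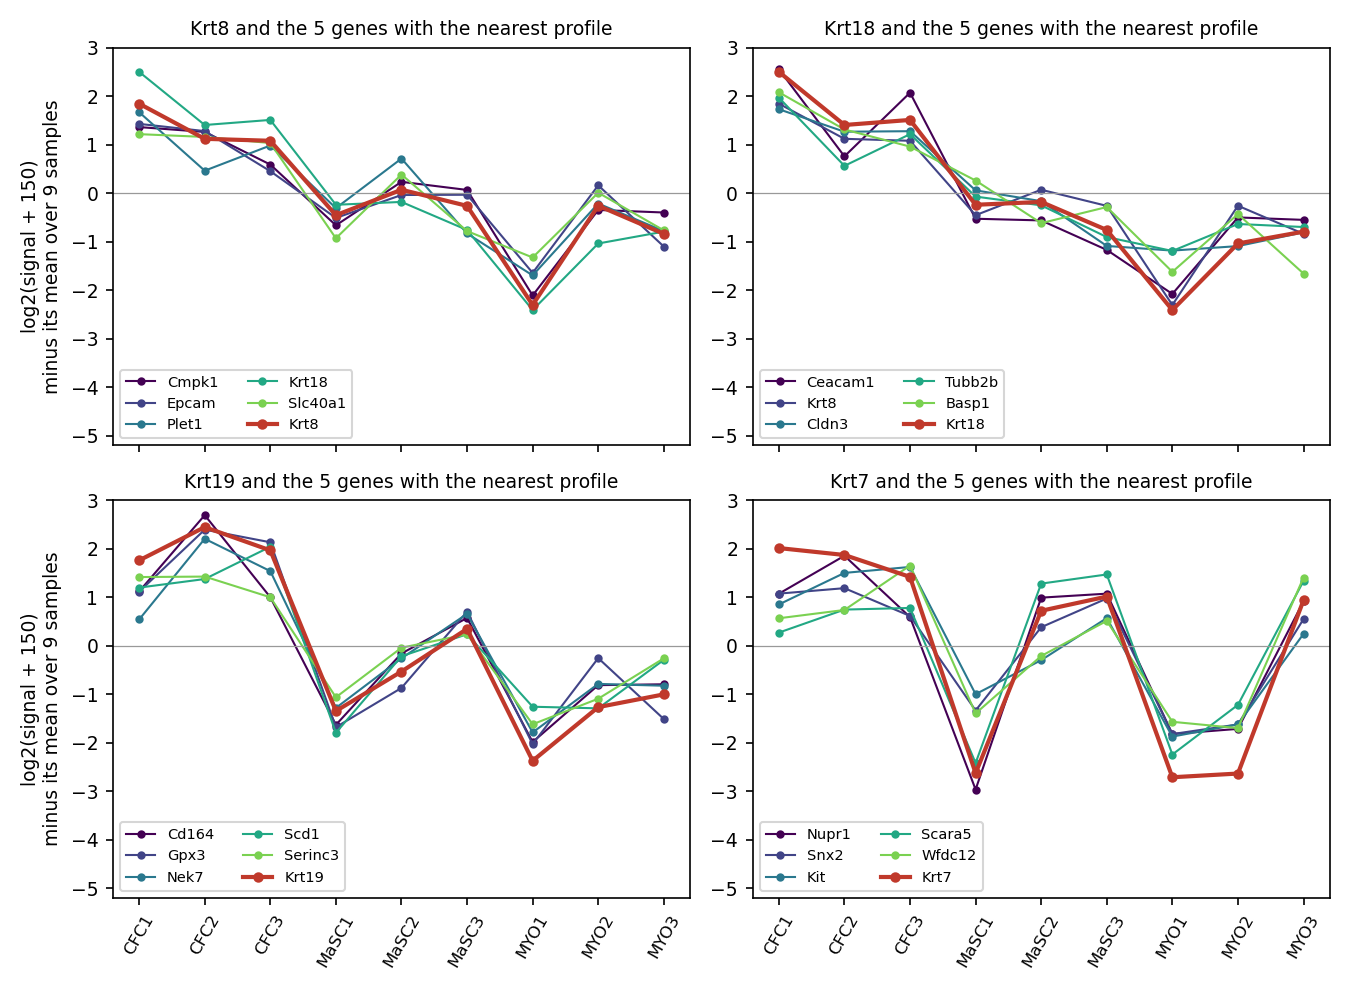
log2(signal + 150) of each keratin (red) and of its 5 nearest genes over the 9 RNA samples, minus the mean of each gene over the samples. Krt8 and Krt18 fall from CFC to the basal samples, with MYO1 lowest, while Krt7 and its nearest genes are low in MaSC1, MYO1 and MYO2 and higher in MaSC2, MaSC3 and MYO3.

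The arrays held 44 other keratin genes, of which 39 were tested. Of these, 4 were called higher and 0 lower in each comparison with CFC (limma), and at an unadjusted p under 0.05 the counts were also 4 and 0. On chip A 0.818% of probe sets were called higher in MaSC and 1.17% in MYO, and on chip B, which carried 9 of the 44 genes, 0.0982% and 0.126% were called in either direction. Krt5 and Krt14, the keratin pair of basal epithelium, rose by 4.95 and 4.92 on the log2 scale in MaSC and by 5.11 and 4.86 in MYO. Krt17, a type I keratin of basal and appendage epithelium, rose by 4.86 and 4.48. Of the other probe sets of these genes, 1 of Krt14 was called higher in both (5.95 and 5.62), and 1 of Krt14 and 1 of Krt17 were not called. Krt15, a basal type I keratin, had log2 fold changes of 0.45 in MaSC and 1.03 in MYO, neither called.

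Krt23, a type I keratin counted among those of simple epithelia, was the fourth. Its signals were 1047, 224 and 750 in CFC, 4153, 3409 and 4590 in MaSC and 3742, 4263 and 11056 in MYO. All basal samples lay above all CFC samples, the reverse of Krt8, Krt18, Krt19 and Krt7. The log2 fold change was 2.50 ± 0.52 in MaSC (limma, adjusted p = 0.00731) and 2.97 ± 0.52 in MYO (limma, adjusted p = 0.000656). The remaining keratins of that list, Krt20 and Krt80, were not called, with log2 fold changes of 0.01 and -0.55 in MaSC and -0.31 and -0.64 in MYO.

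**Figure D5:**
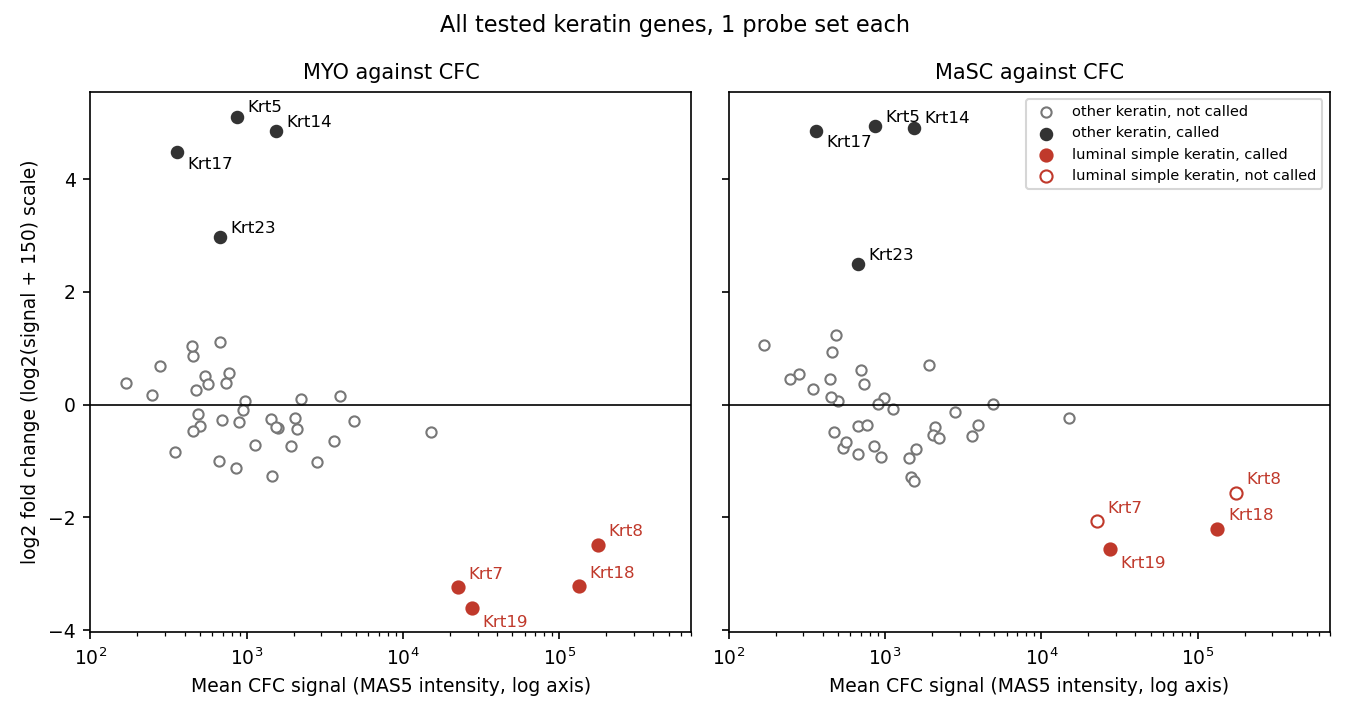
log2 fold change on the log2(signal + 150) scale against the mean CFC signal (log axis) for all tested keratin genes, 1 probe set each. In both panels Krt5, Krt14, Krt17 and Krt23 are filled above 0 and the luminal simple keratins lie below all other keratins.

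Most genes around keratin filaments were not called, but neither were most of all tested probe sets. On chip A 0.818% were called higher and 0.357% lower in MaSC, and 1.17% higher and 0.541% lower in MYO. Of 14 tested intermediate filament genes that are not keratins, 1 was called higher and 0 lower in each comparison. This was Vim, the vimentin gene, with 1.95 ± 0.46 in MaSC (limma, adjusted p = 0.0245) and 2.002 ± 0.46 in MYO (limma, adjusted p = 0.0123). Of 24 linkers and partners, 0 were called in MaSC and 1 in MYO, and 4 passed an unadjusted p under 0.05 in each (limma), where 8.37% of all tested chip A probe sets did in MaSC and 7.96% in MYO. The 1 called was the desmoplakin gene Dsp, which anchors keratins at desmosomes (2.13 ± 0.46, limma, adjusted p = 0.00598). In MaSC, Dsp had 1.65 ± 0.46 (limma, adjusted p = 0.0759). Of the 4 that passed unadjusted, 3 were higher and 1 lower in each comparison. The higher ones were Dsp, Dst and Sfn in MaSC and Dsp, Dst and Pkp1 in MYO. The lower one in both was the desmosomal plaque gene Pkp2, with -1.62 in MaSC and -1.96 in MYO, neither called. The list medians were 0.05 and -0.07 for the filament genes and -0.03 and 0.22 for the linkers, in MaSC and MYO.

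Among 18 epithelial transcription factor genes, 2 were called higher in each comparison and 1 lower in MYO. Of all tested chip A probe sets, 0.818% were called higher in MaSC, and 1.17% higher and 0.541% lower in MYO. At an unadjusted p under 0.05 (limma), 3 were higher and 5 lower in MaSC, and 4 higher and 5 lower in MYO. Of all tested, 8.37% and 7.96% passed. Those lower were Elf5, Ehf, Gata3, Grhl1 and Klf5 in MaSC and Elf5, Ehf, Foxa1, Grhl1 and Hes1 in MYO. Trp63, a master regulator of basal epithelium, rose by 3.76 in MaSC and 4.23 in MYO, and Tfap2c, an AP-2 factor, rose by 1.90 and 2.59. Foxa1, a factor of luminal cells, fell by 2.34 in MYO (limma, adjusted p = 0.0464) and had -0.95 in MaSC (limma, adjusted p = 0.753). Elf5, a factor of luminal progenitors, had -2.75 in MaSC and -1.90 in MYO and was not called (limma, adjusted p = 0.0636 and 0.363).

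Other luminal genes were tested beside the keratins. Of 14 luminal markers, 6 were called lower in MaSC and 9 in MYO, with median log2 fold changes of -1.83 and -2.18. Of all tested chip A probe sets, 0.357% were called lower in MaSC and 0.541% in MYO. The milk protein genes Csn3 and Wfdc18 had -3.33 and -3.52 in MaSC and -4.26 and -3.80 in MYO, and the tight junction genes Cldn3 and Cldn4 had -2.06 and -2.22 in MaSC and -2.78 and -1.99 in MYO. Ltf had -2.65 in MaSC and -3.33 in MYO. All of these genes were called in both (limma). Of 12 basal markers, 9 were called higher in each comparison, with medians of 4.25 and 4.35, where 0.818% of all tested were called higher in MaSC and 1.17% in MYO. These lists overlap in part with those above, since Krt5, Krt14, Krt17, Trp63 and Foxa1 stand in more than 1.

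Lists of markers of other cell types were also tested. Of 9 leukocyte, 6 endothelial, 1 erythroid and 8 skin keratinocyte genes tested, 0 were called in either comparison with CFC and 0 passed an unadjusted p under 0.05 (limma), where 8.37% of all tested did in MaSC and 7.96% in MYO. Of 8 fibroblast genes 1, Col3a1, was called higher in MYO (3.00 ± 0.72, limma, adjusted p = 0.0178). At an unadjusted p under 0.05, 3 of the 8 were higher in MYO and 1 in MaSC. The other two in MYO were Col1a2, at 2.003 (limma, adjusted p = 0.0531), and Dpt, at 2.23 (limma, adjusted p = 0.222). Mesothelium also expresses these 4 keratins. The summed signal of its 5 markers outside the keratins was 2995 to 3685 in CFC, 2830 to 5072 in MYO and 2481 to 3563 in MaSC. None of those tested was called, and 1 passed an unadjusted p under 0.05 in each comparison (limma). These were Wt1 in MYO, with signals of 534, 432 and 718 against 129, 65.0 and 150 in CFC (log2 fold change 1.42, limma, adjusted p = 0.475), and Lrrn4 in MaSC (-1.77, limma, adjusted p = 0.943).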

How the data were processed

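RNA of 9 samples was measured on 2 arrays each, and the 4 keratins have probe sets on chip A only. The deposited table holds linear intensities, 1 for each probe set on each array, from MAS5 per the submitters' processing notes, with no version given there. Every array had a mean of 1500 between its 2nd and 98th percentiles, so the authors' scaling was kept. Detection calls were not used here.

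A pseudocount of 150 was added before taking log2, so folds of dim genes are understated. Probe sets with at least 3 of 9 arrays at 300 were tested, in 1 fit per chip over all 9 arrays with a mean per fraction (limma 3.58.1, R 4.3.3, lmFit and eBayes with a variance trend, Benjamini-Hochberg within chip and contrast, called at an adjusted p under 0.05). The fit was also run on simulated data with independent normal noise. That run does not cover an array that stands apart, the stations or the unstated replication. The number of arrays limits precision. Symbols came from the platform annotation, brought up to date by Entrez identifier with a GRCm38.p6 gene table (20380 chip A probe sets with 1 symbol, 691 with several, 1555 with none; 20351 matched). A gene outside the 4 was represented by its probe set of the highest mean log2 signal on chip A, else chip B; for likeness, by its nearest probe set. Named were all member probe sets, all called keratins with Krt5, Krt14, Krt15 and Krt17, the 5 nearest genes, and up to 4 called genes per list and comparison. Uncalled genes named beside them (Pkp2, Dst, Sfn, Pkp1, Elf5, Ehf, Gata3, Grhl1, Klf5, Hes1, Krt20, Krt80, Col1a2, Dpt, Wt1, Lrrn4) were chosen after their values were seen. The members and lists were chosen with earlier results of these data known. RefSeq promoters were found for 3 of the 4 genes. Alternatives were other pseudocounts, filters, normalization, variance models, samples in the fit, blocks, array weights and each RNA sample left out; the nearest genes without MaSC1 were added after seeing the data.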

Additional observations from a re-analysis of the deposited data

How the results depend on the processing

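In the counts of called members, 8 of the 131 alternative values moved by over 1.5 times. For MaSC against CFC the count of 2 became 5 with only these fractions in the fit and 0 with no variance trend. With no variance trend the counts of 6 became 2 for MYO against CFC, 2 for the mean of the basal fractions and 1 for the F test. Leaving out 1 RNA sample gave 1 to 3 (MaSC against CFC), 3 to 6 (MYO against CFC), 5 to 6 (mean of the basal fractions), 2 to 6 (F test) and 0 to 0 (MaSC against MYO). The causes were not tested. With a replicate block the counts were 2, 6, 0, 6 and 6, as without it; same-numbered samples deviated together with r of -0.113 to 0.118, so the numbers were not taken as pairs. The uncalled ratio of Krt18 to Krt7, -0.06 with the basal samples together, turned to 0.033 with a pseudocount of 15 and 0.090 with quantile normalization, and ranged from -0.54 without MaSC1 to 0.29 without MaSC3. That of Krt18 to Krt19, 0.38, ranged from -0.017 without CFC2 to 0.87 without CFC1. The F test of Krt7 missed the threshold under 11 of its 19 alternatives, among them no filter (adjusted p = 0.0654) and scan day as a block (0.0729). No log2 fold change of a member probe set changed sign under the alternatives run.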
